A study of Mus musculus with 20 samples.

Results

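The enzymes and transporters of glycolysis, glycogen, lactate, pyruvate entry to mitochondria and the pentose phosphate pathway were examined in sorted microglia and astrocytes. The group holds 37 genes taken by symbol from a list, of 39017 Ensembl identifiers counted, and all 37 were found. They fall into 3 genes of hexose uptake, 10 of upper and 6 of lower glycolysis, 4 of lactate, 6 of pyruvate dehydrogenase and its kinases, 4 of glycogen and 4 of the pentose phosphate pathway. Total RNA was sequenced from microglia and astrocytes of the ipsilateral (left) forebrain of adult male C57BL/6 mice (C57BL/6J in the study's methods), 7 days after lateral fluid percussion injury (FPI) or sham surgery, in 4 groups of 5 libraries. FPI sends a fluid pressure wave against the dura through an opening in the skull. Sham mice had the same craniectomy and were connected to the device without the pulse, so both groups carry the surgery. Microglia were sorted as CD11b positive cells of intermediate CD45, which does not by itself separate them from every other myeloid cell, and astrocytes by ACSA-2, an epitope of the sodium-potassium ATPase subunit encoded by Atp1b2. Libraries were made from single animals, not pools. By the animal numbers in the library names 3 mice gave a library of each cell type. FPI astrocyte replicate 5 carries in its name the suffix of microglia replicates 1 to 3 and the animal number of FPI astrocyte replicate 2. It was kept as the astrocyte library its title and cell type label give, and its astrocyte markers (15708 CPM) and microglia markers (231 CPM) lay within the ranges of the other astrocyte libraries, but whether the FPI astrocyte group holds 5 separate mice cannot be told from the names. Microglia replicates 4 and 5 carry J-A in their names, where microglia replicates 1 to 3 carry M. Astrocyte libraries other than FPI replicate 5 carry A. Microglia replicates 4 and 5 were kept as microglia by their titles, and their microglia markers summed to 23745 to 29760 CPM. The comparisons treat each library as an independent sample.

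Glycolysis splits glucose into pyruvate in the cytosol. Pyruvate is then reduced to lactate by lactate dehydrogenase, or enters mitochondria, where the pyruvate dehydrogenase complex converts it to acetyl-CoA and the Pdk kinases switch that complex off. Many steps are run by isozymes encoded by separate genes, which differ in affinity and regulation. In the brain astrocytes hold nearly all glycogen and are known for aerobic glycolysis and lactate release, while microglia are known to shift between oxidative and glycolytic metabolism with their state.

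The libraries held between 5623349 and 13110857 counts assigned to genes. Levels are given as CPM, a gene's counts scaled by the library's total after TMM normalisation. Called here means that the adjusted p of edgeR's quasi-likelihood test was below 0.1 (Benjamini-Hochberg, over all genes tested) and that the log2 fold change exceeded 0.6 in either direction. Markers of both sorted types matched the labels. The summed level of 10 microglia markers was 18965 to 29760 CPM in microglia and 105 to 264 in astrocytes, and that of 11 astrocyte markers 234 to 613 in microglia and 10470 to 32442 in astrocytes. Astrocyte libraries also held oligodendrocyte markers at 1620 to 17215 CPM (6 genes) and pericyte markers at 260 to 7648 CPM (4 genes), against at most 287 and 44.4 in microglia. In bulk libraries fewer cells of a type and less RNA per cell cannot be told apart. Replicates 4 and 5 stood apart in both cell types, as described below, but they are not the same mice. By the animal numbers, no replicate number names the same mouse in both cell types. Sham astrocyte replicates 4 and 5 carry the animal numbers of sham microglia replicates 2 and 3.

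Microglia and astrocytes differed in most of these genes and in which isozyme led at several steps. Of the 37 genes 30 were called, where 64.2% of the 15077 tested genes were. In microglia 6 were called higher, where 27.1% of all were, and 24 were called higher in astrocytes, where 37.2% were. The median log2 fold change of the 37 genes, microglia over astrocytes, was -1.06, against -0.13 over all tested genes. All 6 genes higher in microglia (Slc2a5, Hk2, Slc16a3, Pdk1, Pfkfb3 and Pgd) lay above every astrocyte library, and 17 of the 24 lay below every astrocyte library. Over all tested genes 16.2% lay wholly above and 21.2% wholly below. Without astrocyte replicates 4 and 5 there were 8 higher in microglia and 24 higher in astrocytes, and without FPI astrocyte replicate 5 alone 6 and 23, with the call of Pkm lost (-0.58). The remaining 7 genes were not called. They were Slc2a3, Pfkl, Ldha, Pdk3, Gbe1, G6pdx and Taldo1.

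**Figure D1:**
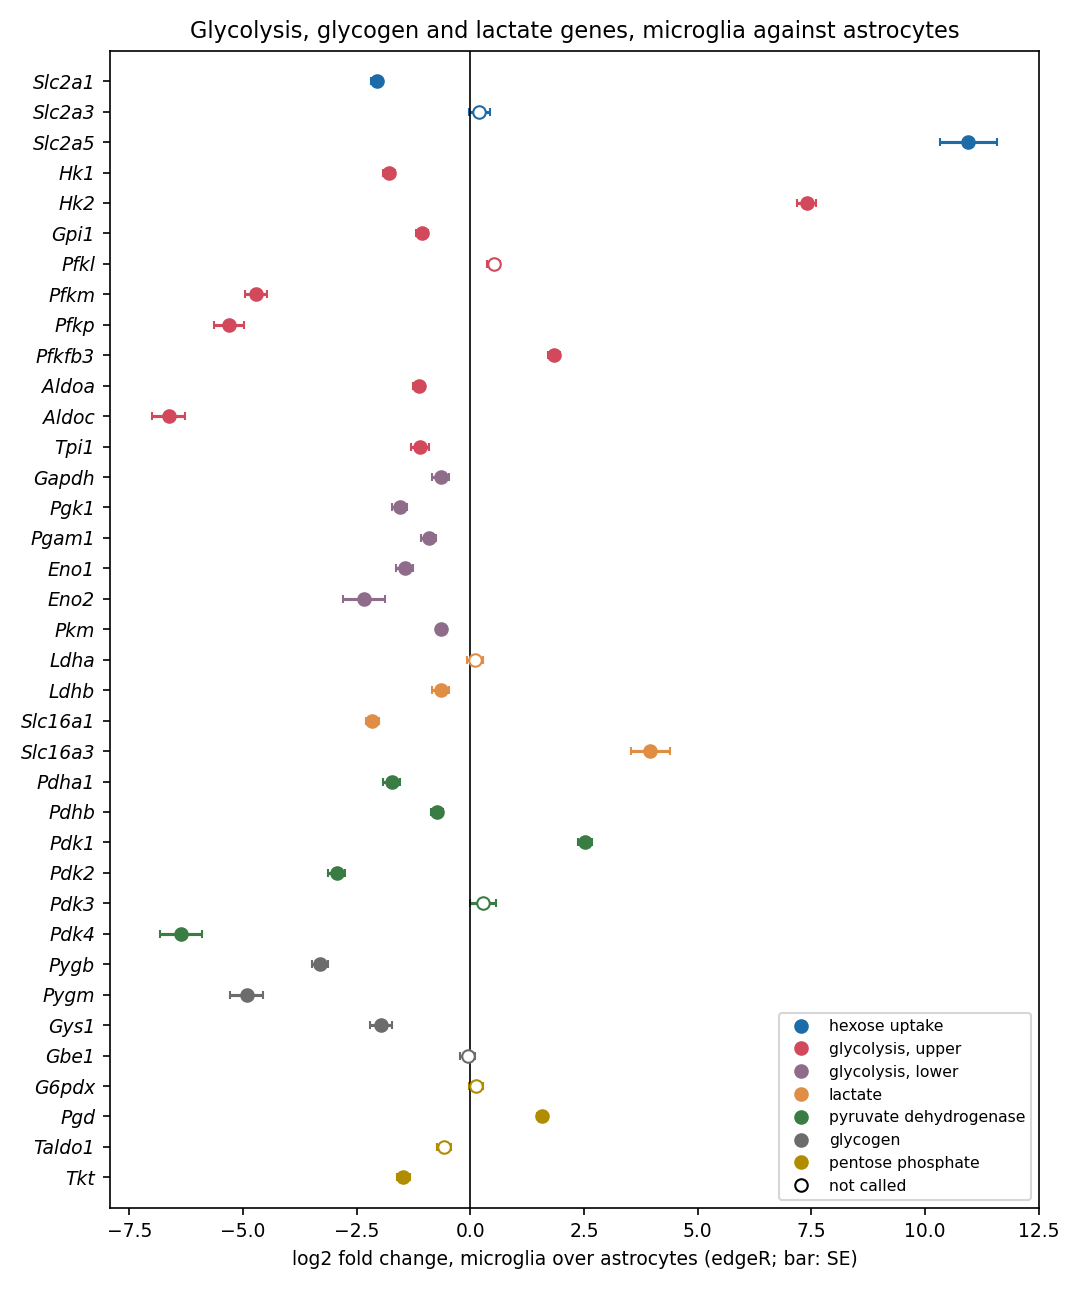
Log2 fold change of each of the 37 genes, microglia over astrocytes, from edgeR over 20 libraries, with the standard error as a bar and colours for the 7 groups. Filled points were called and open points were not. The points run from -6.64 for Aldoc to 10.95 for Slc2a5, and every gene of lower glycolysis lies below 0.

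Hexose uptake showed the sharpest contrast. Slc2a5, the fructose transporter GLUT5 (ENSMUSG00000028976, chr4:150119283-150144169 of GRCm38), was at 146.1 to 356.2 CPM in microglia with a median of 263.0. It had no read in any sham astrocyte library, and in FPI astrocytes it was at 3.40 CPM in replicate 1, 1.598 in replicate 5, the library whose name goes against its label, and 0 in the other three. Sham microglia were at least 4743-fold higher than sham astrocytes, with the latter set at a floor of 3 counts over the 5 libraries, or 0.0649 CPM. The fitted log2 fold change of 10.95 depends on the prior count and is no bound. FPI astrocyte replicates 1 and 5 also had the highest summed microglia markers among the astrocyte libraries, 264 and 231 CPM, and the part of microglial RNA in these reads was not tested. Slc2a1, which encodes GLUT1, the main glucose transporter of glia and of the blood-brain barrier, was the opposite, at 31.8 to 59.7 CPM in microglia (median 43.6) and 140.4 to 264.6 in astrocytes (median 188.3). The ranges did not overlap, and the log2 fold change was -2.06 (SE 0.12, adjusted p = 1.75e-12). Endothelial markers, which mark cells rich in GLUT1, summed to 31.1 to 517 CPM in astrocyte libraries and 66.7 to 99.8 in microglia, and their part in the Slc2a1 level was not tested. Slc2a3, the neuronal glucose transporter GLUT3, was low in both, at medians of 6.82 and 5.08 CPM.

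Hexokinase, which traps glucose by phosphorylation, was led by a different gene in each cell type. Hk2 (ENSMUSG00000000628, chr6:82725025-82774454) was at 429.6 to 574.9 CPM in microglia (median 509.3) and 1.13 to 5.88 in astrocytes (median 2.85), with a log2 fold change at 7.40 (SE 0.21, adjusted p = 4.10e-17). Hk1 (ENSMUSG00000037012, chr10:62268855-62379908) was at 32.7 to 54.2 CPM in microglia and 103.8 to 201.6 in astrocytes, and its log2 fold change was -1.78 (SE 0.13). Neither pair of ranges overlapped. Compared per kilobase of exon, Hk2 took 68.4% ± 4.1 (SD, n = 10 libraries) of the summed hexokinase level in microglia, and Hk1 took 96.4% ± 2.0 in astrocytes. Lengths here and below are of all annotated exons of a gene merged. Shares therefore depend on the annotation, which the SDs do not cover. Hk3, a myeloid hexokinase outside the 37 genes, took 27.7% ± 4.2 in microglia and 0.56% ± 0.87 in astrocytes.

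The 250 bases before the RefSeq start of transcription (GRCm38.p6) are shown for Hk1 and Hk2, for Aldoc, the gene most strongly higher in astrocytes, and for Slc2a5. They are written 5′ to 3′ along the gene, and capitals mark ACGTG or GCGTG, the core bound by hypoxia-inducible factors, and GAGGAA, the core of PU.1, on either strand.
Hk1, chr10:62379909-62380158, minus strand: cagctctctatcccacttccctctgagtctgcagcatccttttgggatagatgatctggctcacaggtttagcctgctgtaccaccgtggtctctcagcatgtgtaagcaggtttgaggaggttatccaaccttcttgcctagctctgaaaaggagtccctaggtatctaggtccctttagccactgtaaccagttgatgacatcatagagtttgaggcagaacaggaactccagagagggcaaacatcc
Hk2, chr6:82774455-82774704, minus strand: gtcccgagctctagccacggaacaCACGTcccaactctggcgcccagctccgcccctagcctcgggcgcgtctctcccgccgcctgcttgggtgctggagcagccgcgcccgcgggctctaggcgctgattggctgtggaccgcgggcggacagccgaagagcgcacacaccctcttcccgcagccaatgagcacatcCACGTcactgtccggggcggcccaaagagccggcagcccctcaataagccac
Aldoc, chr11:78322823-78323072, plus strand: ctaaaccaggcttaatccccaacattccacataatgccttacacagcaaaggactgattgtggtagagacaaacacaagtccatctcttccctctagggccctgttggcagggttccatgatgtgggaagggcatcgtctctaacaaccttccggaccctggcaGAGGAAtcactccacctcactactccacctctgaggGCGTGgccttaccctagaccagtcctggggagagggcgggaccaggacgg
Slc2a5, chr4:150119094-150119343, plus strand: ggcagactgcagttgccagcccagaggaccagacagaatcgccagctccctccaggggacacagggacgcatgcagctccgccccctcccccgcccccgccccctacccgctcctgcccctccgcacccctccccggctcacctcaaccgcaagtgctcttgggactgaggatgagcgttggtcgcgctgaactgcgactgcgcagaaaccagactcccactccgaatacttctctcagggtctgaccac
In these windows Hk2 holds the hypoxia core on the opposite strand, Aldoc holds both cores, and Hk1 and Slc2a5 hold neither. Of the 36 genes with an entry in the table, 27 (75%) hold a hypoxia core, against 38.6% of 32851 promoters of the same length. Each of the 36 entered with 1 start, that nearest its GENCODE 5′ end (4329 bases away for Ldha). Whether these cells use that start was not examined, for Hk1 and Hk2 as for the others. The 32851 promoters count every entry and were not matched for base composition, so the gap is no test of enrichment. The PU.1 core is in 8 (22.2%), against 23.3% of promoters. By direction, 5 of the 6 genes higher in microglia and 17 of the 24 higher in astrocytes hold a hypoxia core, and 0 of 6 and 8 of 24 hold a PU.1 core. These matches describe letters in a window and are not sites of binding.

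Of the 10 genes of upper glycolysis 7 were called higher in astrocytes and 2, Hk2 and Pfkfb3, in microglia. Phosphofructokinase commits sugar to glycolysis. Its muscle-type gene Pfkm was at 4.48 to 11.5 CPM in microglia and 112.9 to 351.0 in astrocytes (log2 fold change -4.71, SE 0.25), and its platelet-type gene Pfkp at 0.602 to 6.94 and 73.4 to 254.6 (-5.31, SE 0.33). Neither pair of ranges overlapped. The liver-type gene Pfkl had medians of 71.04 and 57.0 CPM, and at 0.52 on the log2 scale (SE 0.14, adjusted p = 0.00302) it stayed under the fold minimum. Per kilobase, Pfkl made up 80.7% ± 4.7 of the 3 genes in microglia and Pfkm 77.7% ± 3.5 in astrocytes. The merged exons of Pfkp span 13401 bases, against 4145 for its longest protein-coding transcript. For Pfkm these lengths are 3340 and 2879. By transcript length the share of Pfkp would be larger, and it was not computed. Pfkfb3, whose product makes the activator of phosphofructokinase, was higher in microglia, at 225.0 to 404.9 CPM against 47.6 to 94.03 (log2 fold change 1.85, SE 0.13).

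Aldolase, which splits the phosphorylated sugar, followed the same division. Aldoc (ENSMUSG00000017390, chr11:78322968-78327781), the brain form and a known astrocyte marker, was at 6.02 to 36.1 CPM in microglia and 669.99 to 2624.5 in astrocytes (log2 fold change -6.64, SE 0.37). Aldoa was at 110.6 to 186.8 CPM in microglia and 227.6 to 454.9 in astrocytes (-1.14, SE 0.13). Both were higher in every astrocyte library than in any microglia library, yet per kilobase Aldoa held 91.0% ± 4.7 of the aldolase level in microglia while Aldoc held 80.1% ± 4.9 in astrocytes. Gpi1 and Tpi1, the isomerases, had medians of 96.7 and 31.3 CPM in microglia and 204.2 and 68.7 in astrocytes. Both were called higher in astrocytes (-1.06, SE 0.13, and -1.11, SE 0.19), and their ranges overlapped between the cell types.

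**Figure D2:**
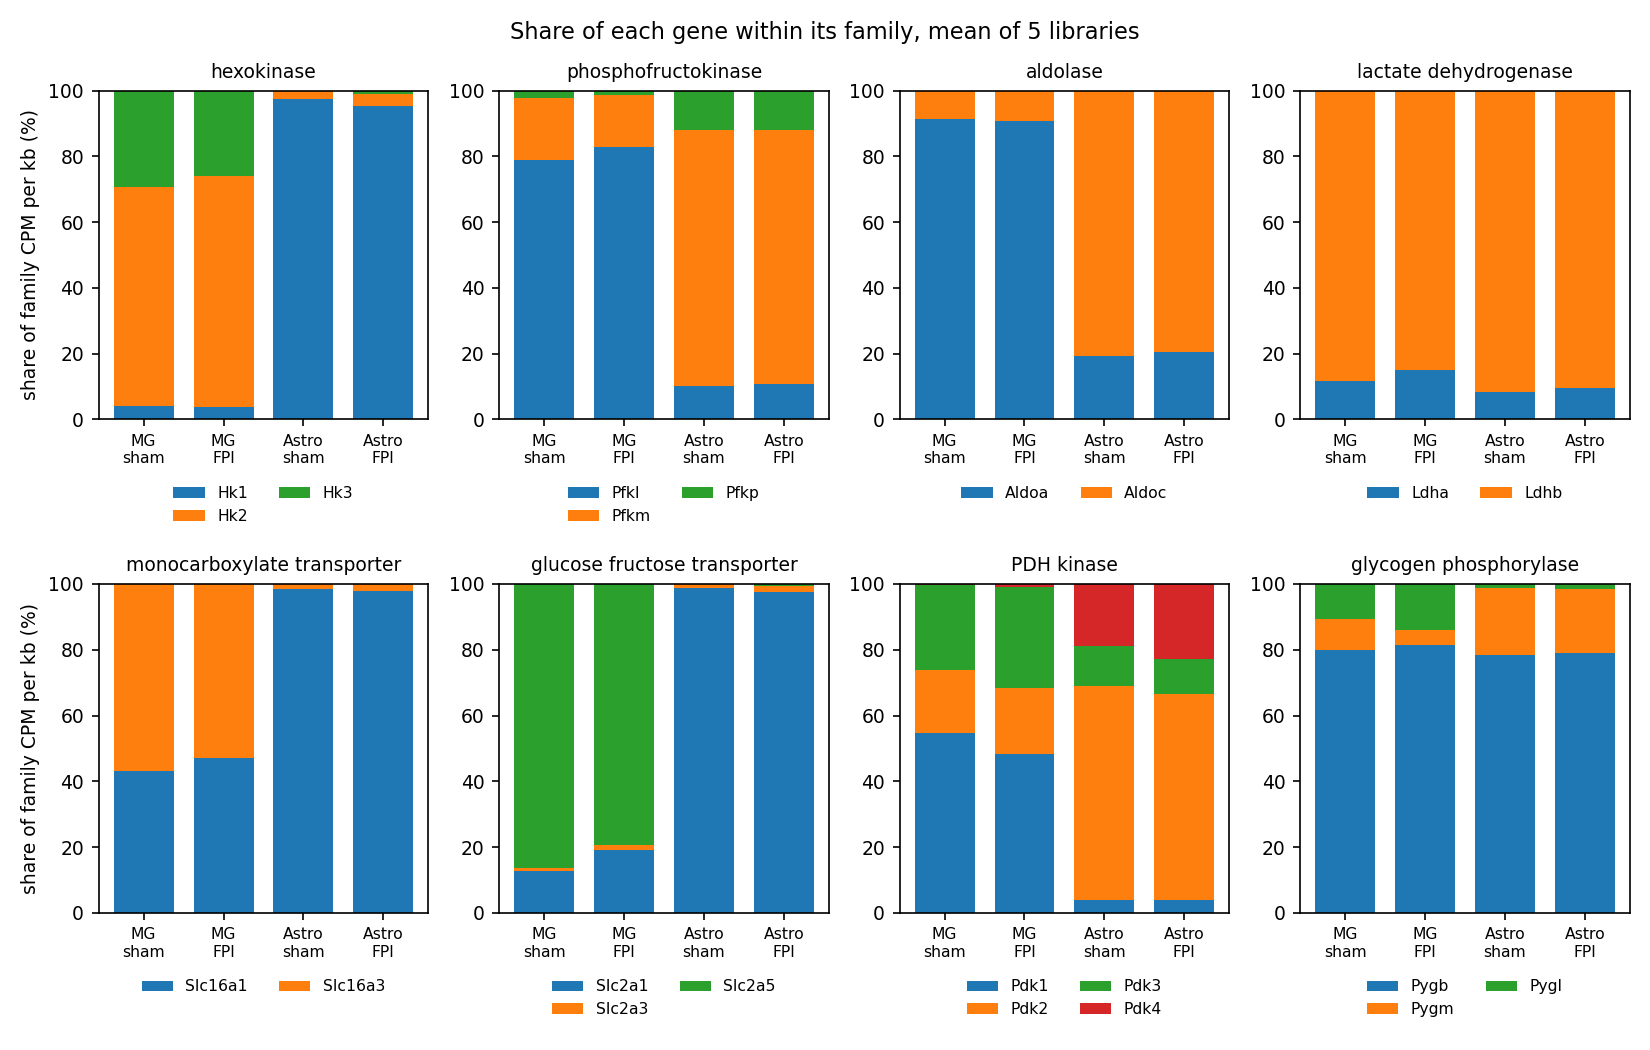
Share of each gene in the summed CPM per kilobase of its family (percent), as the mean of 5 libraries for microglia (MG) and astrocytes (Astro) in sham and FPI mice, in 8 families. The leading hexokinase, phosphofructokinase, aldolase and PDH kinase genes differ between the cell types, while Ldhb leads lactate dehydrogenase and Pygb glycogen phosphorylase in both.

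All 6 genes of lower glycolysis, from Gapdh to Pkm, were called higher in astrocytes, with log2 fold changes, microglia over astrocytes, from -2.33 for Eno2 to -0.65 for Pkm. Pgk1, which makes the first ATP of the pathway, was at 20.9 to 53.0 CPM in microglia and 70.5 to 129.2 in astrocytes. Eno1, the general enolase, was at 111.8 to 179.1 and 183.8 to 591.4 CPM. Pkm, pyruvate kinase, was at 161.6 to 263.6 and 280.5 to 385.8 CPM. These 3 did not overlap, while Gapdh, Pgam1 and Eno2 did, with medians of 32.8, 31.8 and 1.19 CPM in microglia and 51.0, 60.6 and 6.89 in astrocytes. Many of these genes share sequence with other genes, for Gapdh mostly pseudogenes. The share of 50-base words also present in transcripts of other genes was 82.5% for Gapdh, 72.2% for Eno1, 68.0% for Pgk1, 41.5% for Pgam1 and 34.4% for Pkm, so their levels are uncertain where counting could split reads between copies. Outside lower glycolysis the share was highest for Pdhb at 30.3%, Ldhb at 27.0% and Gpi1 at 25.3%. It was 0 for Hk2, Slc2a5, Slc16a3, Pdk1, Pfkm and Aldoc. The calls of Gapdh, Ldhb and Pkm lay near the fold minimum and were lost in 6, 3 and 2 of the 20 fits that left out 1 library, and among FPI libraries alone Gapdh had -0.37 (adjusted p = 0.25).

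Among the lactate genes the transporters had the widest differences. Slc16a3, which encodes MCT4, the exporter typical of glycolytic cells, was at 20.1 to 40.5 CPM in microglia (median 30.7) and 0.133 to 5.05 in astrocytes (median 1.54), and the fold change on the log2 scale was 3.96 (SE 0.42, adjusted p = 2.81e-08). Within astrocytes the 4 libraries of replicates 4 and 5 had 2.24 to 5.05 CPM and the 6 of replicates 1 to 3 had 0.133 to 1.63. Slc16a1, the MCT1 transporter, was at 14.0 to 27.4 CPM in microglia and 74.3 to 130.1 in astrocytes (-2.16, SE 0.15). Per kilobase the 2 transporters were nearly level in microglia, with 54.9% ± 4.8 for Slc16a3, whereas Slc16a1 held 98.3% ± 1.6 in astrocytes. Astrocyte libraries also held endothelial and oligodendrocyte markers, and the part of such cells in the Slc16a1 level was not tested. Ldhb, the heart-type subunit of lactate dehydrogenase, led Ldha in both, with 86.7% ± 2.3 per kilobase in microglia and 91.0% ± 3.1 in astrocytes. Ldhb was at 160.9 to 260.8 CPM in microglia and 133.7 to 492.5 in astrocytes, overlapping ranges with a log2 fold change of -0.65 (SE 0.19). Ldha, the muscle-type subunit, did not pass the test (0.10, SE 0.17, adjusted p = 0.613).

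The kinases that restrain pyruvate dehydrogenase were also divided. Pdk1 (chr2:71873224-71903858) was at 84.9 to 113.7 CPM in microglia and 10.1 to 27.0 in astrocytes (log2 fold change 2.52, SE 0.15, adjusted p = 1.97e-12). Pdk2 was at 11.2 to 26.8 and 71.6 to 181.4 CPM (-2.94, SE 0.19), and Pdk4 (chr6:5483351-5496309), the kinase induced by fasting and fatty acids, at 0 to 1.498 and 21.6 to 58.3 CPM (-6.37, SE 0.46). Each of the 3 had ranges that did not overlap. Pdk1 took 51.5% ± 6.9 of the kinase level per kilobase in microglia, and Pdk2 and Pdk4 together led in astrocytes with 63.8% ± 5.9 and 20.8% ± 3.9. Pdk3 did not pass (adjusted p = 0.377). The catalytic subunit genes Pdha1 and Pdhb were higher in astrocytes (-1.73, SE 0.19, and -0.74, SE 0.13).

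Of the 4 glycogen genes 3 were called higher in astrocytes. Pygb, brain glycogen phosphorylase, which frees glucose units from glycogen, was at 40.3 to 74.5 CPM in microglia and 321.4 to 824.7 in astrocytes (log2 fold change -3.30, SE 0.18). Pygm, the muscle form, was at 0.897 to 9.97 and 48.8 to 162.7 CPM (-4.92, SE 0.36). Gys1, glycogen synthase, was at 5.45 to 20.4 and 22.3 to 80.9 CPM (-1.96, SE 0.25). None of the 3 overlapped between the cell types. Gbe1, the branching enzyme, had medians of 16.7 and 17.6 CPM and did not pass (adjusted p = 0.756, 95% interval of the log2 fold change -0.40 to 0.27). In the pentose phosphate pathway, which supplies NADPH, Pgd was higher in microglia at 68.7 to 93.96 against 20.5 to 35.2 CPM (1.57, SE 0.11). Tkt, transketolase, was higher in astrocytes at 170.2 to 375.1 against 68.8 to 126.8 CPM (-1.47, SE 0.14), and G6pdx and Taldo1 were not called.

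Genes of the same pathways outside the 37 also lay on both sides. Of 69 listed and found, 56 were tested, 15 were called higher in microglia and 25 higher in astrocytes. Over all tested genes 27.1% and 37.2% were. Of these genes, 15 regulators and 12 hypoxia-induced genes, the 4 of largest fold in each direction without overlap are given. Toward microglia these were Hk3 (log2 fold change 9.13, SE 0.39), Mlxipl, which encodes the sugar-sensing factor ChREBP (5.48, SE 0.25), the transporter genes Slc16a6 (4.29, SE 0.32) and Slc2a9 (3.51, SE 0.37). Toward astrocytes they were Ppp1r3g, a glycogen-targeting subunit of protein phosphatase (-8.68, SE 0.43), Slc2a4, which encodes the insulin-responsive transporter GLUT4 (-7.81, SE 0.63), Slc2a12 (-7.30, SE 0.64) and the coactivator Ppargc1a (-6.72, SE 0.51). The 7 further hexose transporter genes, with Slc2a4, Slc2a9 and Slc2a12 among them, together summed to 34.2 to 64.0 CPM in microglia and 35.1 to 89.0 in astrocytes. Folds of these transporter genes thus come from low levels. Of the 15 regulators 5 were called higher in microglia and 3 in astrocytes. Of the 12 hypoxia-induced genes 2 were called higher in microglia and 7 in astrocytes. For both lists the shares over all tested genes are again 27.1% and 37.2%.

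After FPI Slc2a5 was called lower in microglia, a call that did not hold in every replicate series, and no other gene of the set was called. Of the 36 tested (Pdk4 did not pass the filter on low counts), 0 were called higher after FPI, where 2.13% of 12143 tested genes were, and 1 was called lower, where 0.214% were. Without a fold minimum 3 had an adjusted p below 0.1 (3.05% of all genes). These were Slc2a5, Pkm and Gpi1. At an unadjusted p below 0.05 there were 7 higher and 1 lower, where 7.47% and 3.87% of tested genes were. The standard errors were small, a median of 0.18 on the log2 scale, and 30 of the 36 had a 95% interval inside a log2 fold change of 1 in either direction.

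The levels of Slc2a5 in sham microglia were 298.9, 356.2, 296.6, 260.8 and 325.9 CPM in replicates 1 to 5, and in FPI microglia 146.5, 170.1, 146.1, 251.4 and 265.3 CPM. FPI replicates 1 to 4 lay below all sham libraries, replicate 4 by the least, while FPI replicate 5 lay above the lowest sham library. The log2 fold change was -0.63 (SE 0.17, adjusted p = 0.0651). The values differed between replicates. Replicates 1 to 3 carry one series of animal numbers in the library names and replicates 4 and 5 another. Within the first the log2 fold change was -1.04 (SE 0.14, adjusted p = 0.00015), and within the second it was -0.14 (SE 0.17, adjusted p = 0.832), from a fit with an effect for each series. The difference between them was 0.90 (SE 0.22, adjusted p = 0.201 over 12143 genes in edgeR). The call was also lost in 7 of the 10 fits that left out 1 library, with log2 fold changes from -0.79 to -0.53 over the 10. Monocyte and macrophage markers (7 genes) summed to 125 to 380 CPM in replicates 1 to 3 and 18.8 to 57.4 in replicates 4 and 5, and immediate-early and stress genes (12 genes) to 3369 to 4410 against 1385 to 2434 CPM, and their part in the Slc2a5 levels was not tested.

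**Figure D3:**
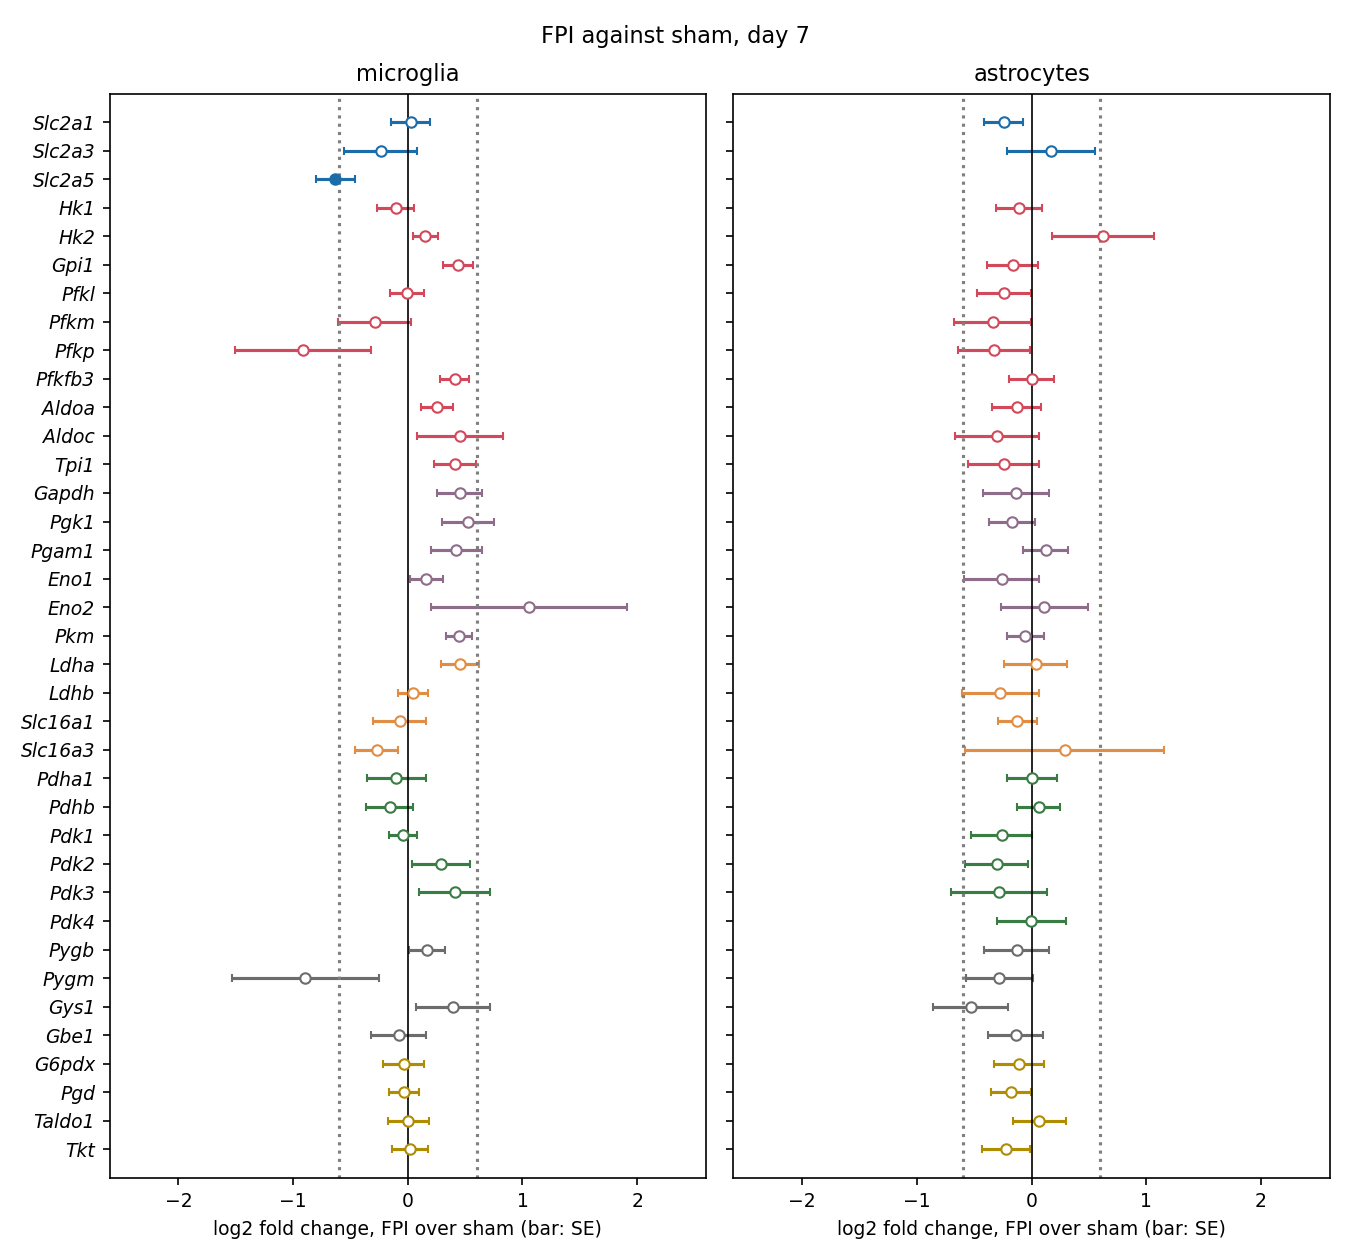
Log2 fold change of each tested gene, FPI over sham, in microglia (left, 36 genes) and astrocytes (right, 36 genes), with the standard error as a bar and colours as in the plot of the cell type contrast. Dotted lines stand at the fold minimum of 0.6, and Slc2a5 in microglia is the only filled point, which marks a called gene.

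Most glycolytic enzymes had positive fold changes in microglia, and none was called. Among the 16 genes of glycolysis 12 had a positive log2 fold change, with a median of 0.41. Over all tested genes 48.7% were positive, with a median of -0.01. All 6 of lower glycolysis were positive. Pkm (ENSMUSG00000032294, chr9:59656368-59679375) was at 161.6, 184.0, 192.9, 165.4 and 193.9 CPM in sham replicates 1 to 5 and at 242.7, 263.6, 233.0, 230.4 and 241.3 CPM in FPI replicates. The FPI libraries were all higher than the sham libraries, as for 2.17% of tested genes. The log2 fold change was 0.45 (SE 0.11, adjusted p = 0.0394), and it was 0.46 in replicates 1 to 3 and 0.43 in replicates 4 and 5. Leaving out 1 library in turn gave 0.41 to 0.48, and in 4 of the 10 fits the adjusted p of Pkm was above 0.1. Gpi1 was at 81.8 to 97.7 CPM (median 88.8) in sham and 95.8 to 147.2 CPM (median 114.3) in FPI, and the log2 fold change was 0.44 (SE 0.13, adjusted p = 0.0981). Leaving out 1 library in turn, the adjusted p of Gpi1 was above 0.1 in 9 of 10 fits.

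Other glycolytic genes had unlike values in the 2 series of animal numbers. Pfkfb3 had a log2 value of 0.41 for FPI over sham (SE 0.13, adjusted p = 0.122), with 0.58 (SE 0.14) in replicates 1 to 3 and 0.12 (SE 0.17) in replicates 4 and 5. Gapdh had 0.11 (SE 0.22) and 0.90 (SE 0.28), and Eno1 had -0.10 (SE 0.15) and 0.54 (SE 0.19). The difference between the series had an unadjusted p below 0.05 for 9 of the 36 genes, where 10.5% of 12143 tested genes had one. The adjusted p was at least 0.132 for all 36, and 2 of the 12143 genes (0.0165%) had one below 0.1. Of the 36 genes 15 were positive in both series, 6 negative in both and 15 of opposite sign, where 24.6%, 25.3% and 50% of all tested genes were. Ldha was at 45.4, 64.1, 68.997, 59.6 and 58.3 CPM in sham and 59.4, 94.9, 60.5, 83.9 and 102.2 CPM in FPI, with overlapping ranges (0.45, SE 0.17, adjusted p = 0.238). Pgk1 had 0.53 (SE 0.22, adjusted p = 0.348).

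Aldoc in microglia had the lowest p of the 36 for the difference between the series. It was at 13.5, 10.5, 9.74, 22.0 and 14.8 CPM in sham replicates 1 to 5 and at 36.1, 25.7, 19.2, 8.32 and 6.02 CPM in FPI replicates. The FPI libraries of replicates 1 to 3 lay above the sham libraries of the same numbers, and those of replicates 4 and 5 below. The log2 fold change was 1.27 (SE 0.32) in the first series and -1.33 (SE 0.40) in the second, a difference of -2.59 (SE 0.51, adjusted p = 0.132 in edgeR). Astrocyte markers summed to 576 and 613 CPM in FPI microglia replicates 1 and 2 and to 234 to 367 in the other microglia libraries, and their part in the Aldoc level was not tested.

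**Figure D4:**
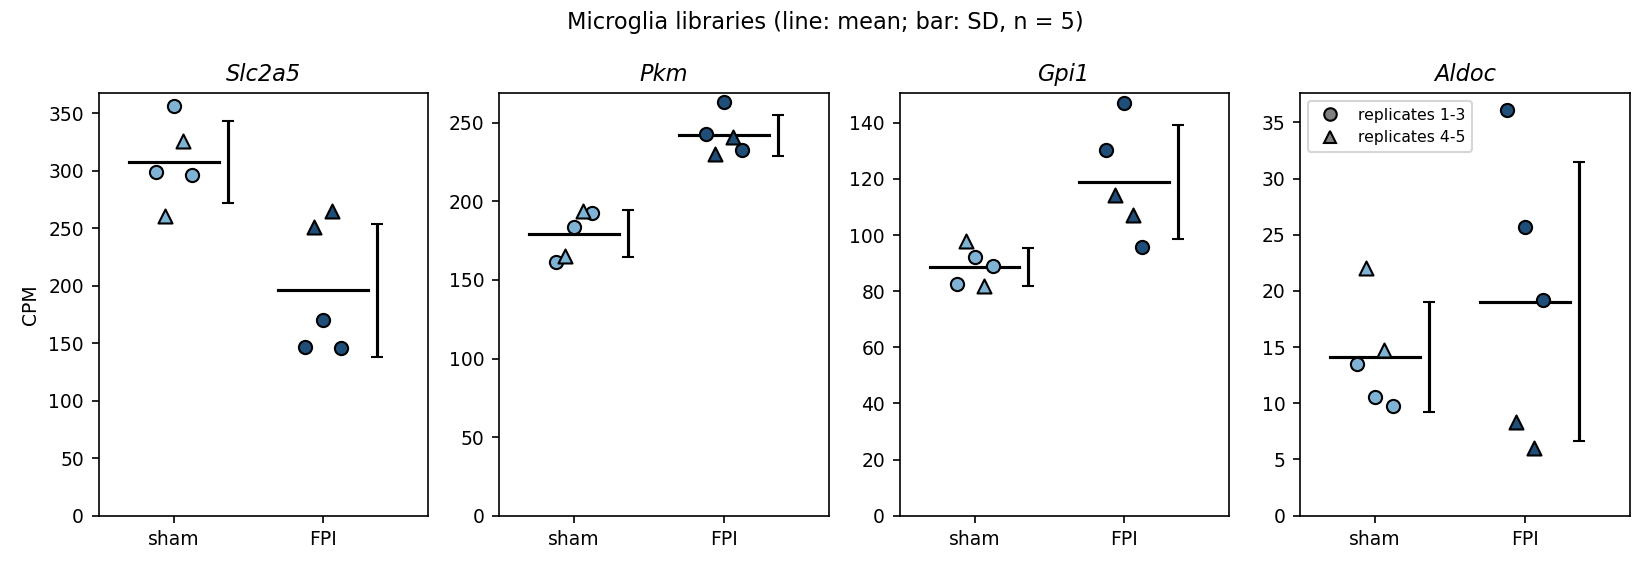
CPM of Slc2a5, Pkm, Gpi1 and Aldoc in the 10 microglia libraries, sham and FPI, with circles for replicates 1 to 3 and triangles for replicates 4 and 5, a line at the mean and a bar for the SD (n = 5). The 5 FPI libraries of Pkm lie above all sham libraries, and in Slc2a5 the 2 FPI triangles lie at 251.4 and 265.3 CPM, apart from the 3 circles.

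The remaining groups showed no call in microglia. Hk2 was at 478.4 ± 40.9 CPM (SD, n = 5) in sham and 525.7 ± 36.1 in FPI, and the FPI effect was 0.15 (log2, SE 0.11, adjusted p = 0.709). Slc16a3 was at 33.7 ± 3.1 and 27.7 ± 7.8 CPM (-0.27, SE 0.19, adjusted p = 0.698), and Pdk1 at 94.4 ± 12.2 and 90.9 ± 3.9 CPM (-0.04, SE 0.12, adjusted p = 0.951). The 4 genes of the pentose phosphate pathway lay between -0.04 and 0.02. Of the 48 further pathway genes tested in microglia 0 were called (edgeR), 3 were higher and 1 lower at an unadjusted p below 0.05, and 0 of 13 regulators and 0 of 8 hypoxia genes were called. Among the regulators Txnip, which encodes an inhibitor of glucose uptake, had an adjusted p below 0.1 without reaching the fold minimum. It was at 566.2, 606.4, 575.4, 446.5 and 454.7 CPM in sham and 292.6, 347.2, 410.5, 369.4 and 368.5 CPM in FPI, so that all FPI libraries lay below all sham libraries (-0.55, SE 0.12, adjusted p = 0.0203). Hif1a, the hypoxia-inducible factor, had 0.51 (SE 0.14, adjusted p = 0.0728). These 2 genes were singled out after their values were seen.

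In astrocytes 0 of the 36 genes tested were called after FPI (Slc2a5 did not pass the filter), where 1 of 13741 tested genes (0.00728%) was called. On simulated counts this fit recovered 35 of 100 changes of 1 on the log2 scale and 76 of 100 changes of 2. The changed genes were drawn from all tested genes, so these rates are not those of the 36 genes. Under other settings up to 53 of all genes were called. The absence of calls therefore does not show that the set was unchanged. At an unadjusted p below 0.05 there were 0 of the 36 and 1.57% higher and 0.75% lower of all genes, and DESeq2 also called 0 of the 36, as did the fit without FPI replicate 5. Of the 36 values 26 were negative and 10 positive, where 49.2% of all tested genes were positive, with a median of -0.14, and every adjusted p was 0.9994. The lowest p was that of Gys1, at 80.9, 65.7, 68.8, 22.3 and 31.8 CPM in sham and 49.3, 30.4, 44.6, 31.0 and 27.2 CPM in FPI (-0.53, SE 0.33). Sham replicates 1 to 3 lay above all FPI libraries and sham replicates 4 and 5 within or below them. The standard errors were wider than in microglia, with a median of 0.27, and 31 of the 36 intervals lay inside a log2 fold change of 1 in either direction.

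Within astrocytes the levels of the set were split by replicate. The 37 genes summed to 8592, 7957, 7247, 3695 and 4940 CPM in sham replicates 1 to 5 and to 6689, 6109, 5713, 3991 and 4968 CPM in FPI replicates. Replicates 4 and 5 were thus the lowest in both conditions. Of the 37 genes 21 lay below replicates 1 to 3 in both replicates 4 and 5 of the sham group, where 20.4% of 13741 tested genes did, and 19 in the FPI group, where 12.9% did, and 16 did so in both. The labels name no batch, and this division was made with earlier results of these libraries known, so it is given with no test. FPI replicate 5 is the library whose name goes against its label, and sham replicates 4 and 5 do not share that doubt. Aldoc shows it, at 2624.5, 2491.9 and 2082.5 CPM in sham replicates 1 to 3 against 669.99 and 1314 in replicates 4 and 5, and 1953.6, 1686.3 and 1599.1 against 811.8 and 1217.4 in FPI. Pfkm, Pygb, Ldhb and Eno1 had the same order, while Slc16a3 and Slc2a3 had the reverse in both conditions and Pkm, Slc2a1, Ldha and Pgd overlapped in both.

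Marker levels moved with these libraries. The 11 astrocyte markers summed to 20381 to 32442 CPM in replicates 1 to 3 and 10470 to 15978 in replicates 4 and 5. Pericyte markers summed to 260 to 2809 CPM in replicates 1 to 3 and to 2967 to 7648 in replicates 4 and 5, and oligodendrocyte precursor markers (6 genes) to 289 to 522 and 680 to 1365. Oligodendrocyte markers were highest in sham replicate 4 at 17215 CPM and overlapped otherwise. Their part in the levels of the 37 genes was not tested. With a term for replicates 4 and 5 the fit in astrocytes called 0 of the 36 genes for FPI.

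**Figure D5:**
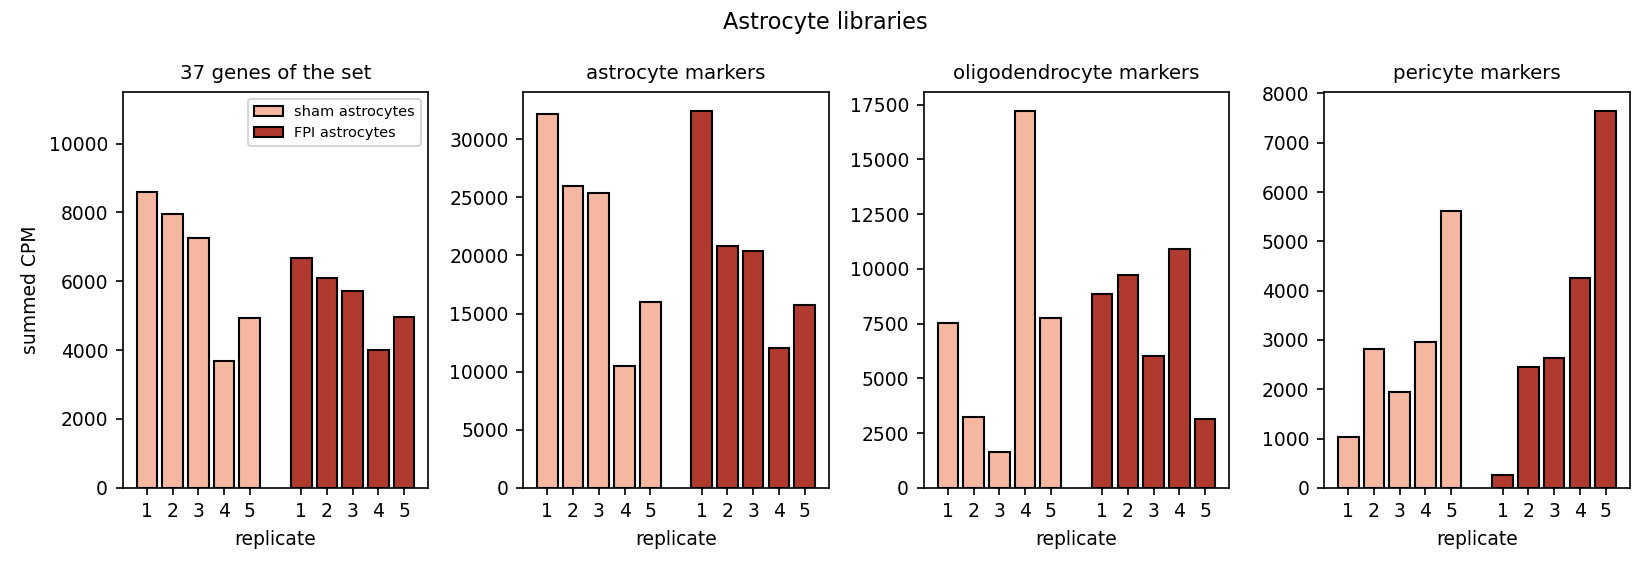
Summed CPM of the 37 genes and of the astrocyte, oligodendrocyte and pericyte markers in each astrocyte library, sham and FPI, replicates 1 to 5. Bars start at 0, and replicates 4 and 5 hold the lowest sums of the 37 genes (3695 to 4968 CPM) and of astrocyte markers, and the highest sums of pericyte markers.

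The difference of the FPI effect between the cell types, called at an adjusted p below 0.1 with no fold minimum, passed for 0 of the 37 genes in edgeR. On simulated counts this test recovered 4 of 100 differences of 1 on the log2 scale and 42 of 100 differences of 2. The absence of calls therefore does not show that the effects were equal. Of 15077 tested genes 30 (0.199%) passed, 0.0332% with a higher effect in microglia and 0.166% with a lower one. At an unadjusted p below 0.05 there were 3 higher and 1 lower of the 37, where 3.77% and 3.24% of all were, and DESeq2 called 1 of each. Pkm had a larger FPI effect in microglia by a log2 value of 0.51 (SE 0.17, adjusted p = 0.439), and Gpi1 and Pgk1 by 0.62 (SE 0.26) and 0.71 (SE 0.32). Slc2a5 was the fourth, with the lower effect in microglia and 0 counts in 8 of the 10 astrocyte libraries (adjusted p = 0.205). All 6 genes of lower glycolysis had positive differences, from 0.31 to 0.96, and 51.5% of all tested genes were positive.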

How the data were processed

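The authors deposited one table of counts per gene for 20 libraries. Per the submitters' processing notes reads were handled with bcl2fastq, HISAT2 2.1.0 and featureCounts on mm10 (GRCm38.p6), and 0 columns were left unmapped. The 37 genes and all lists were chosen with earlier results of these data known. Genes passing filterByExpr were fitted with the quasi-likelihood test of edgeR 4.0.16 (limma 3.58.1, R 4.3.3) after TMM normalisation, with Benjamini-Hochberg adjustment over all tested genes. Microglia and astrocytes were fitted separately for FPI (10 libraries each) and together for the cell type contrast and the difference of effects. CPM came from the fit of 20 libraries. DESeq2 1.42.0 was an alternative. All 37 genes are accounted for. Other listed genes are given as counts, and by name for the 4 of largest fold in each direction between cell types. Intervals are normal intervals from the standard error. Each test was tried on simulated counts with known changes. Of 100 changes of 1 on the log2 scale, 62 were recovered for the cell types and 50 for FPI in microglia. For FPI in astrocytes 35 were recovered, and for the difference of effects 4. Python 3.11.15, numpy 2.4.6, pandas 2.3.3 and matplotlib 3.10.9 made summaries and plots. Coordinates are GENCODE M21 on GRCm38. Depth ran from 5623349 to 13110857 counts per library. No 2 libraries of a group agreed within counting noise.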

Additional observations from a re-analysis of the deposited data

Results flagged for a closer look

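In groups of 5 libraries the highest or lowest value was compared with its nearest neighbour, and a gap above 0.71 of the group's range (Dixon's 95% critical value) singled out 6 of 147 sets of values. Chance singles out about 1 in 20, or about 7.3 of them. In FPI microglia replicate 2, Slc2a1 stood at 59.657 CPM and Hk1 at 54.166 CPM, each far above the other 4 libraries. In FPI microglia replicate 1, Pdk2 stood at 26.846 CPM, also above the others. These 2 libraries had the highest summed astrocyte markers among microglia, 576 CPM in replicate 1 and 613 CPM in replicate 2. All 3 genes were called higher in astrocytes than in microglia, as were 24 of the 37 genes of the set. The part of astrocyte RNA in these values was not tested. In sham microglia Pfkl was high in replicate 3 at 102.38 CPM and Tpi1 low in replicate 1 at 19.743 CPM. In sham astrocytes Slc2a3 was high in replicate 5 at 9.9817 CPM.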

How the results depend on the processing

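Of 3827 values of the 37 genes under other settings, 3783 kept their side of the threshold, 28 lost a call, 16 gained one and 0 reversed, while 151 values without a call changed sign. For FPI in microglia, an adjusted p below 0.05 with no fold minimum gave 1 gene higher (Pkm) and 0 lower. Replicates 1 to 3 alone gave 1 higher (Aldoc). The call of Slc2a5 was lost in the fit of all 20 libraries and in replicates 4 and 5 alone, an alternative added after seeing the data, with 0 lower in each. Leaving out 1 library gave 0 to 1 lower, and the call was lost without sham replicate 1, 2, 3 or 5 or FPI replicate 1, 2 or 3. DESeq2 gave 1 gene higher (Pkm) and 1 lower (Slc2a5) for the difference of effects, and leaving out the astrocyte libraries of animals with both cell types gave 1 lower (Slc16a3). The libraries left out were sham astrocyte replicates 4 and 5 and FPI astrocyte replicate 3. Those 2 sham libraries held the highest Slc16a3 levels of their group. The cause of these changes was not tested. The cell type contrast kept 4 to 8 genes higher and 21 to 25 lower, and astrocytes had 0 called after FPI under all 20 alternatives. Over all genes the main count of 285 for FPI in microglia ran from 99 to 423, that of 1 in astrocytes from 0 to 53, that of 30 for the difference from 1 to 191 and that of 9683 for the cell types from 4515 to 12882. Pairing by replicate number was taken as shown only where every same-numbered pair's deviations correlated above 0.1. In microglia sham and FPI gave -0.04 to 0.08. In astrocytes they gave 0.41, -0.0045, 0.20, 0.40 and 0.30 for replicates 1 to 5, so 4 of 5 pairs were above 0.1, and 3 of the 5 correlated best with their own number, which is a hint from the data and not from the design. With a replicate block 6 and 23 of the 37 genes were called between cell types, 0 and 1 after FPI in microglia and 0 in astrocytes and for the difference. By the animal numbers a replicate number names a different mouse in each group, so this block pairs no animals.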
